A study of Mus musculus with 5 samples.

Results

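Channels that open when a membrane is stretched, and TRP channels, pass cations, in many cases calcium, into the cells of the beating atrium. The genes described are 9 of these, Piezo1, Piezo2, Trpc1, Trpc6, Trpm4, Trpm7, Trpv2, Trpv4 and Pkd2, chosen by symbol out of 57186 genes in the deposited tables. RNA came from whole atria of mice with 1 copy of the MRC2 allele E990G (het) and of wild-type mice (WT), and was sequenced as stranded polyA libraries. MRC2 takes up collagen at the surface of mesenchymal cells. The analysis used 3 het animals (5, 6 and 7) and 2 WT animals (7 and 8) of batch 2. The design text names 7 het and 8 WT animals, and gives their ages as 4 to 10 months. Strain and sex are not given in the labels used here, and no label names a driver that limits the allele to a cell type.

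PIEZO proteins form trimeric pores that open under membrane tension. TRP channels are tetramers that respond to lipids, calcium, temperature, cell swelling or release of stored calcium, and several have been described as stretch-responsive, directly or through partners. In the heart they have been studied in fibroblasts, endothelium and muscle cells, so a level in whole tissue sums several cell types. Fewer cells of a type and less RNA per cell cannot be told apart in such libraries.

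Total expected counts (RSEM's estimated read counts) were 21410811, 22012784 and 28353091 in het 5, 6 and 7, against 24445791 and 17784601 in WT 7 and WT 8. Levels are given as CPM, the expected counts scaled to library size with TMM factors. Mrc2 itself had a log2 fold change of -0.013 (SE 0.18, edgeR adjusted p = 0.973), and a single amino acid change does not show in such counts. WT 7 stood apart from the other 4 libraries: it held 938 counts of Ddx3y, on the Y chromosome, against 0 to 3 elsewhere, and its Xist count was 22 where the others had 6117 to 15280. By Ddx3y and Xist, WT 7 showed a male pattern and the other 4 libraries a female one. Sex was thus uneven between the groups, and its part in the differences was not tested. The effect of leaving out WT 7 on each channel gene is given below where it changes a direction. The atrial and muscle markers were abundant in every library, and the 7 cardiomyocyte markers summed to 47490, 47200 and 54610 TPM in het and 64000 and 58290 TPM in WT.

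Sequences are shown first for Piezo1 and Trpm7, at places where the annotated coding transcript differs from one of another annotated type. In Trpm7 it is the boundary of the retained intron, and in Piezo1 it is a short exon difference, beside the larger one that Piezo1-204 lacks the first 11 exons of Piezo1-209 (1608 bases). They were read from the GRCm38 genome with GENCODE release M21, while the deposited values use GRCm39. All transcript IDs of the 9 genes were found in that release. Exon 30 of Piezo1-209 (chr8:122489555-122489626, minus strand, protein coding) is 72 bases long. The capitals mark the 10 bases that are absent from the matching exon 19 of Piezo1-204 (chr8:122489555-122489616), the transcript annotated for nonsense-mediated decay.
Piezo1-209: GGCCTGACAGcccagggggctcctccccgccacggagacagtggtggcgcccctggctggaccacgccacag
Piezo1-204: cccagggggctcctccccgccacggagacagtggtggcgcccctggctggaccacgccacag

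In Trpm7 the compared stretch starts with the last 30 bases of exon 38, in lower case (chr2:126795232-126795261, minus strand). The capitals mark the first 30 bases that follow, which belong to the last exon in the coding Trpm7-202 and to the retained intron of 2275 bases in Trpm7-204 (chr2:126795202-126795261 for the whole stretch of Trpm7-204).
Trpm7-202: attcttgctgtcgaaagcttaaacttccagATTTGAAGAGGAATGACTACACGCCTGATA
Trpm7-204: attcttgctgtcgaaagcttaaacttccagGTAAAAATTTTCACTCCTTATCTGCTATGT

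The 9 genes fell into 3 tiers of level. On the deposited TPM scale, which is per transcript length, Trpm4 averaged 27.9 TPM over the 5 libraries, Trpm7 20.6, Piezo1 15.8 and Pkd2 15.4, and each of these neighbours overlapped in range. Trpc1 (3.10 TPM), Trpv4 (2.39), Piezo2 (1.54) and Trpv2 (1.30) formed a middle tier, and Trpc6 was last at 0.078 TPM. The ranges separated Pkd2 from Trpc1 and Trpv2 from Trpc6, those of Trpv4 and Piezo2 met at 2.13 TPM, and Trpc1 overlapped Trpv4 and Piezo2 overlapped Trpv2.

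The order at the top depended on how length was counted. In Trpm4, transcripts under 1000 bases held 6.13% to 11.03% of the expected counts per library but 45.1% to 60.0% of the TPM. In Piezo1 they held 1.10% to 2.18% of the counts and 20.1% to 40.1% of the TPM. Dividing CPM by the length of each gene's longest transcript with counts gave Pkd2 14.8, Trpm7 13.9, Trpm4 11.2 and Piezo1 8.34 CPM per kilobase as means, with Trpm4 above Piezo1 in all 5 libraries and without overlap of their ranges. Trpm4 therefore led on the TPM scale and followed Pkd2 and Trpm7 on the other, whereas the 3 tiers held the same genes on both. Per kilobase the middle tier itself was split, with Trpv4 above Trpv2 in all 5 libraries and no overlap of ranges. Means there were 2.68 for Trpc1, 2.23 for Trpv4, 0.884 for Trpv2 and 0.634 for Piezo2.

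**Figure D1:**
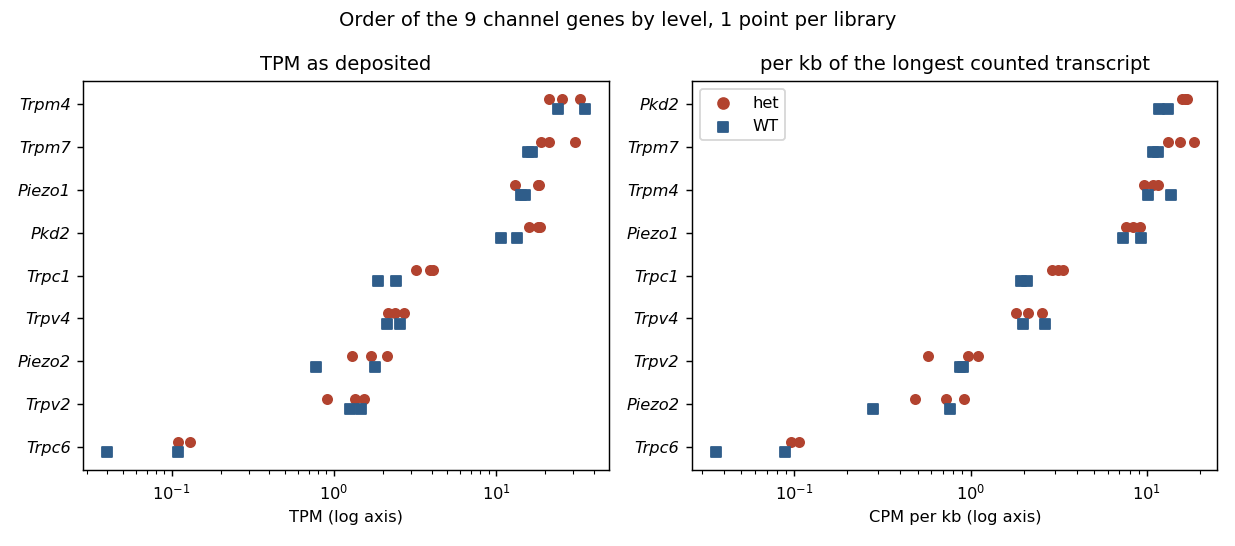
Levels of the 9 channel genes, as deposited TPM (left) and as CPM per kilobase of the longest transcript with counts (right), both on log axes, with 1 point per library (circles het, squares WT). Trpm4, Trpm7, Piezo1 and Pkd2 lie to the right of all other genes on both scales; Trpc6 in het 5 was 0 and cannot be drawn.

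Between het and WT atria, none of the 8 channel genes that passed the expression filter was called at an adjusted p under 0.05 in edgeR's quasi-likelihood test, where 5.64% of the 16412 genes tested were called in either direction. Trpc1, Trpm7 and Pkd2 were higher in every het library than in both WT libraries, and their log2 fold changes ran from 0.40 to 0.63 with adjusted p from 0.0501 to 0.0715. Of all genes tested, 21.1% were higher in all het than in all WT libraries. At an unadjusted p under 0.05 edgeR had these 3 of 8, where 24.7% of all genes tested had such a p. DESeq2 called the same 3, where it called 5.28% of genes as higher, and limma-voom called 0. Piezo1, Piezo2, Trpm4, Trpv2 and Trpv4 overlapped between the groups. The 8 log2 fold changes had a median of 0.20, with 5 of 8 above 0, beside a median of -0.0014 over all genes tested.

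Transcript length moved with these differences. The median log2 fold change over genes rose with length, from -0.38 in the shortest length decile to 0.33 in the longest. Piezo1, Piezo2, Trpc1, Trpm7 and Pkd2 all lie in the ninth length decile, whose median was 0.24, and Trpv4, Trpv2 and Trpm4 in deciles with medians of 0.10, 0.05 and -0.093. With trends of length and GC content removed from each library, the median of the 8 channel genes was 0.11, beside 0.028 over all genes tested.

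Piezo1 (ENSMUSG00000014444, chromosome 8) encodes the force-gated channel best known from endothelium and red cells. It had 74.9, 62.8 and 68.5 CPM in het 5, 6 and 7, against 76.1 and 60.5 CPM in WT 7 and WT 8. The groups overlapped, with WT libraries at both ends. Means were 68.75 ± 6.06 CPM in het and 68.3 ± 10.99 CPM in WT (SD, n = 3 and 2). The difference on the log2 scale was 0.0082 (SE 0.14, 95% interval -0.29 to 0.31, edgeR adjusted p = 0.979).

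The transcripts of Piezo1 were less alike between the groups than its total. The coding Piezo1-209 held 48.0%, 41.7% and 45.1% of the gene's expected counts in het, against 28.3% and 23.7% in WT. Piezo1-204, annotated for nonsense-mediated decay, held 40.7%, 42.1% and 43.6% in het and 49.7% and 57.5% in WT. So Piezo1-209 was high and Piezo1-204 low in all 3 het libraries, without overlap. How often shares or CPM of single transcripts separate in this way over all genes was not computed. That limit holds for the transcripts of Trpm4, Trpm7 and Trpv2 below too. Piezo1-209 and Piezo1-204 share 38 exons of 51 and 40, and reads in the shared exons are divided by RSEM's model. Another coding transcript, Piezo1-201 (8216 bases, against 8219 in Piezo1-209), held 3.16%, 6.03% and 2.20% in het. It held 13.3% in WT 7 and 0 in WT 8, so the Piezo1-209 share alone is not the coding share.

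Over the 5 libraries together Piezo1-204 held most counts, although Piezo1-209 led in het 5 and het 7. The difference in the Piezo1-204 share was -11.4 percentage points (42.1 ± 1.4 in het against 53.6 ± 5.5 in WT, exact two-sided permutation p = 0.2, adjusted p = 0.4 over 8 genes). It was -7.54 points without WT 8. With 3 against 2 libraries 0.2 is the smallest p this test can give. All transcripts annotated as protein coding together held 51.1%, 47.7% and 47.3% of Piezo1 counts in het, against 41.5% and 23.7% in WT. The gap of 16.1 points was set largely by WT 8, the shallowest library, and was 7.17 points without it. As shares of TPM the values were 24.8%, 28.5% and 24.0% in het and 25.5% and 10.8% in WT, which overlap.

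Piezo2 (ENSMUSG00000041482, chromosome 18) encodes the related channel of touch and stretch-sensing neurons. It had 9.80, 7.79 and 5.20 CPM in het, against 8.20 and 2.98 CPM in WT. Only WT 8 stood below every het library, and it held 51 counts, where the other 4 held 151 to 209. On the log2 scale the difference was 0.42 (SE 0.45, 95% interval -0.65 to 1.49, edgeR adjusted p = 0.625). It was -0.10 without WT 8 and 1.35 without WT 7, so its direction and size rested on single libraries.

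The coding share of Piezo2 was 62.9%, 56.1% and 55.1% in het, against 54.3% and 18.7% in WT. WT 7 lay just below the lowest het library and WT 8 far below. The difference of 21.5 points was 3.75 points without WT 8. The decay-annotated Piezo2-205 held 36.6%, 39.2% and 40.1% in het and 41.1% and 71.8% in WT. Coding Piezo2-209 held 54.4%, 42.2% and 38.4% in het and 26.9% in WT 7, and was at 0 in WT 8.

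Trpc1 (ENSMUSG00000032839, chromosome 9) encodes a subunit that joins store-operated and receptor-operated channels and can pair with polycystin-2. It had 13.2, 14.3 and 15.3 CPM in het, against 9.55 and 8.82 CPM in WT. All 3 het libraries were above both WT libraries, and the gap was wider than the spread within either group (14.27 ± 1.02 in het, 9.19 ± 0.51 in WT, SD, n = 3 and 2). The log2 fold change was 0.63 (SE 0.17, 95% interval 0.26 to 1.01), larger than that of 93.6% of genes tested, and its edgeR adjusted p of 0.0501 did not pass 0.05. On the TPM scale Trpc1 had 3.22, 3.93 and 4.06 in het and 2.41 and 1.86 in WT.

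The Trpc1 call turned on the processing. DESeq2 called it (log2 fold change 0.63, adjusted p = 0.0218), as did edgeR with library size alone as scaling (0.68, adjusted p = 0.0384) and with every gene that had a count (0.68, adjusted p = 0.0164). After removal of length and GC trends its log2 fold change was 0.45 (95% interval 0.10 to 0.80, edgeR adjusted p = 0.233). Over 16 alternatives its log2 fold change was 0.45 to 0.78 and its adjusted p 0.0164 to 0.233. One transcript, Trpc1-204, held 92.6%, 92.5% and 96.0% of its counts in het and 89.2% and 94.1% in WT, so the gene total reads close to a single transcript.

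Trpc6 (ENSMUSG00000031997, chromosome 9) encodes a channel gated by the lipid messenger diacylglycerol. It had 0, 7 and 10 expected counts in het, against 7 and 2 in WT. No group stood apart, and Trpc6 did not pass the expression filter. The count of 0 in het 5 allows up to 0.14 CPM (3 counts of that library's total), and this limit covers counting error only. A difference in Trpc6 was not detectable at this depth.

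Trpm4 (ENSMUSG00000038260, chromosome 7) encodes a calcium-activated channel for sodium and potassium that is known in atrial muscle and conduction tissue. It had 46.8, 41.4 and 50.0 CPM in het, against 58.9 and 43.9 CPM in WT. The groups overlapped, with WT 7 highest. Its log2 fold change was -0.16 (SE 0.15, 95% interval -0.48 to 0.17, edgeR adjusted p = 0.554). It turned to 0.044 with length and GC trends removed and to 0.074 without WT 7.

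Counts of Trpm4 were divided among several transcripts. Coding Trpm4-209 held 34.3%, 27.2% and 31.6% in het and 44.0% and 40.4% in WT, without overlap (difference -11.2 points, exact permutation p = 0.2, adjusted p = 0.4). As shares of TPM its values overlap, with het libraries at 13.2% to 21.4% and both WT libraries inside that range, WT 8 at 18.8% (difference -3.29 points). Decay-annotated Trpm4-208 held 25.0%, 21.9% and 18.6% in het and 18.6% and 13.6% in WT. All coding transcripts together held 51.8%, 53.7% and 47.6% in het and 52.3% and 62.9% in WT, which overlap. In Trpm4 the mean coding share was lower in het (51.0%) than in WT (57.6%), the other direction from the 2 Piezo genes, with overlap.

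Trpm7 (ENSMUSG00000027365, chromosome 2) encodes a magnesium and calcium channel fused to a protein kinase, present in most cell types. It had 109.9, 131.1 and 94.2 CPM in het, against 82.0 and 77.3 CPM in WT, the highest CPM of the 9 genes in all 5 libraries. The het libraries differed among themselves more (SD 18.5) than the WT libraries (SD 3.31), but all lay above WT. The log2 fold change was 0.49 (SE 0.15, 95% interval 0.16 to 0.81, edgeR adjusted p = 0.0699). It was 0.25 after removal of length and GC trends (adjusted p = 0.423), and 0.36 without het 6.

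Among Trpm7 transcripts, coding Trpm7-202 held 68.3%, 67.9% and 69.2% of counts in het and 61.0% and 56.3% in WT. The het shares differed little among themselves (SD 0.66 points) and lay above both WT shares (difference 9.85 points, exact permutation p = 0.2, adjusted p = 0.4). The other coding form, Trpm7-201, held 22.8%, 19.7% and 17.0% in het and 22.1% and 14.2% in WT, which overlap. Trpm7-204, which keeps the last intron shown above, held 6.94%, 8.83% and 10.4% in het and 13.2% and 25.7% in WT. In CPM, Trpm7-202 had 75.1, 89.1 and 65.2 in het and 50.0 and 43.5 in WT, and Trpm7-204 had 7.63, 11.6 and 9.79 in het and 10.8 and 19.8 in WT. The coding transcript did not overlap between groups in CPM, while the intron-holding one did.

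The protein-coding share could be compared in 6 of the 9 genes, those with 5% to 95% of counts in coding transcripts. It was higher in all het than in all WT libraries in 3 of the 6, Piezo1, Piezo2 and Trpm7. The same held for 21.5% of 4522 genes, with a median difference of 1.21 points. As shares of TPM all 3 overlap: Piezo2 had 39.4%, 30.0% and 31.0% in het and 30.6% and 5.13% in WT, and Trpm7 had 74.0%, 54.8% and 59.9% in het and 58.0% and 43.8% in WT. For Trpm7 the shares of counts were 91.1%, 87.6% and 86.3% in het, against 83.1% and 70.5% in WT, a difference of 11.5 points that was 5.22 points without WT 8. This measure was chosen after the transcript shares were seen. For the leading transcripts of the other genes, the difference was -17.8 points in Piezo2 (exact permutation p = 0.2), 2.08 in Trpc1 (exact p = 0.6), 1.55 in Trpv2 (exact p = 0.8) and 1.10 in Pkd2 (exact p = 0.6), with adjusted p from 0.4 to 0.8 over the 8 genes. The Piezo2 difference was -2.41 points without WT 8 and -33.2 points without WT 7. As a share of TPM, Trpv2-201 did not overlap, at 79.4%, 89.6% and 85.9% in het and 68.4% and 75.0% in WT (difference 13.2 points), and Trpm7-202 did, at 55.3%, 42.3% and 47.9% in het and 42.4% and 34.8% in WT.

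**Figure D2:**
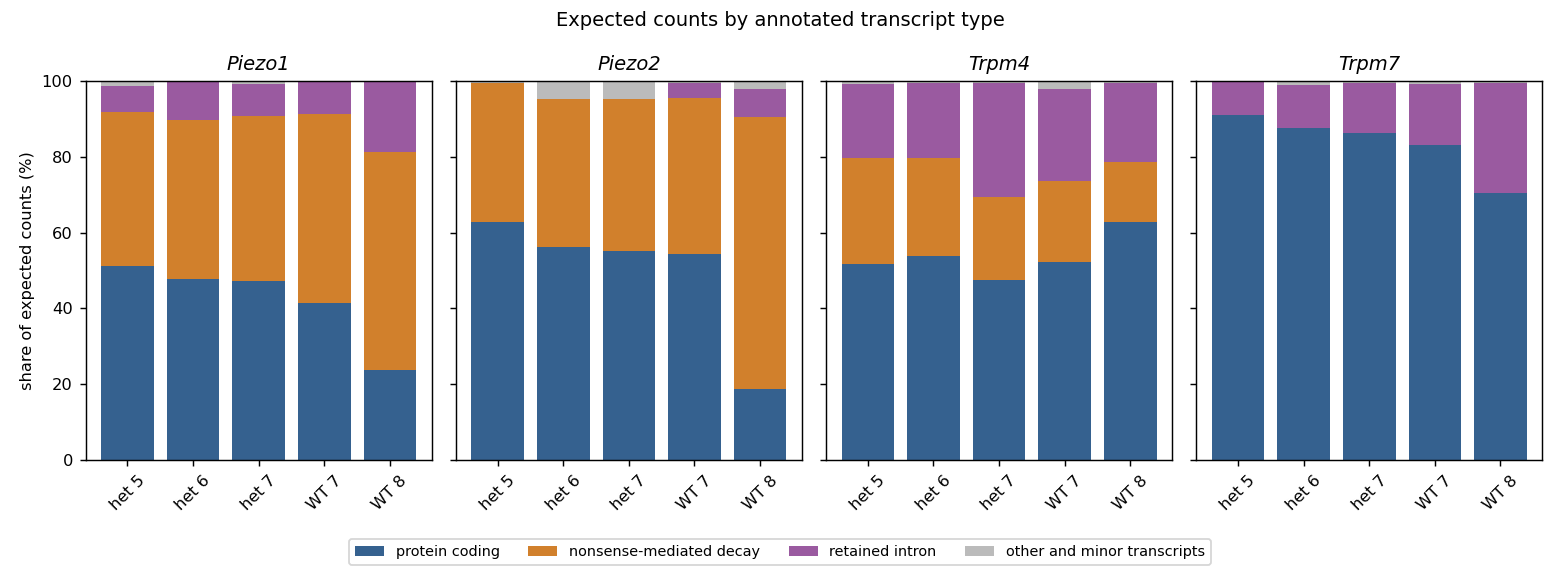
Share of each gene's expected counts (%) by annotated transcript type in the 3 het and 2 WT libraries, for Piezo1, Piezo2, Trpm4 and Trpm7. The coding share is lower in WT 8 than in every other library for Piezo1, Piezo2 and Trpm7, and highest there for Trpm4.

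Trpv2 (ENSMUSG00000018507, chromosome 11) encodes a cation channel described in immune cells and in stretched muscle. It had 3.57, 4.03 and 2.10 CPM in het, against 3.20 and 3.33 CPM in WT. The WT values lay inside the het range. The log2 fold change was -0.02 (SE 0.34, 95% interval -0.75 to 0.71, edgeR adjusted p = 0.978), and it was 0.22 without het 7. Trpv2-201 held 80.6%, 86.8% and 89.4% of its counts in het and 84.0% and 84.1% in WT. Trpv2-204, annotated as a processed transcript, held 17.6%, 13.2% and 8.64% in het and 7.51% and 11.3% in WT.

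Trpv4 (ENSMUSG00000014158, chromosome 5) encodes a channel opened by cell swelling and warmth. It had 8.26, 6.85 and 5.86 CPM in het, against 6.44 and 8.53 CPM in WT. The groups overlapped, and WT 8 was highest. The log2 fold change was -0.10 (SE 0.24, 95% interval -0.61 to 0.41, edgeR adjusted p = 0.843). Without WT 8 it was 0.13.

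RSEM divided Trpv4 between a pair of coding transcripts of nearly equal length, 3228 and 3226 bases, that share 13 of 16 exons. Trpv4-201 held 100%, 62.2% and 57.3% in het and 93.0% and 2.24% in WT. Trpv4-205 held 0, 37.8% and 38.9% in het and 0 and 97.8% in WT. The division differed between libraries of the same group by more than between the groups (difference in Trpv4-201 25.6 points, exact permutation p = 0.6).

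Pkd2 (ENSMUSG00000034462, chromosome 5) encodes polycystin-2, a calcium-permeable channel of cilia and the endoplasmic reticulum. It had 82.4, 88.8 and 85.8 CPM in het, against 68.6 and 61.5 CPM in WT. All het libraries were above both WT libraries (85.7 ± 3.19 in het, 65.0 ± 5.03 in WT, SD, n = 3 and 2). Het exceeded WT by a log2 fold change of 0.40 (SE 0.12, 95% interval 0.13 to 0.66, edgeR adjusted p = 0.0715). After removal of length and GC trends it was 0.16 (95% interval -0.069 to 0.40, adjusted p = 0.555). Pkd2-201 held 90.0%, 92.6% and 92.1% of counts in het and 88.6% and 92.4% in WT, and its intron-retaining transcript held 9.86%, 7.37% and 7.74% in het and 11.2% and 7.61% in WT.

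**Figure D3:**
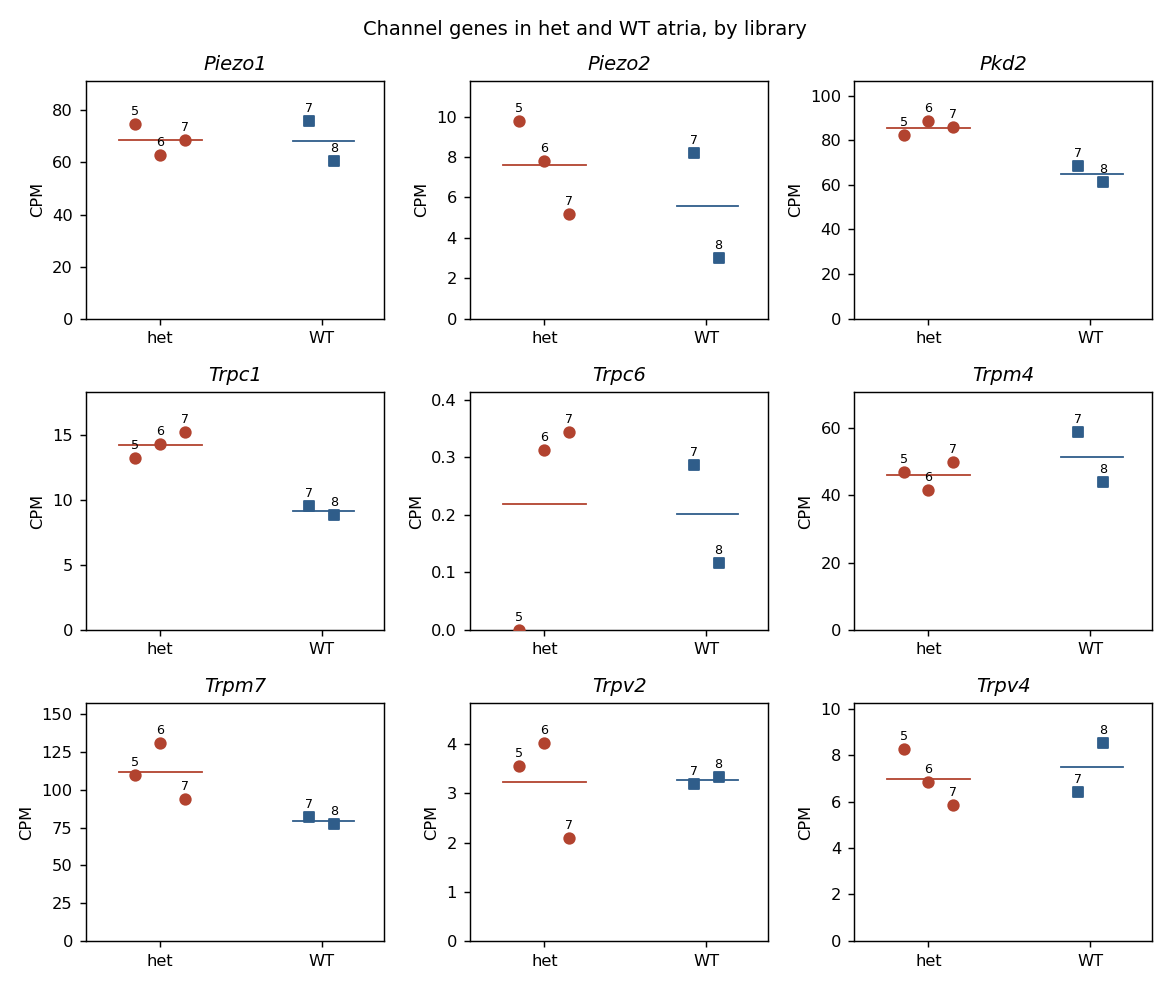
Level of each channel gene in CPM (linear axes from 0), with 1 point per library labelled by its replicate number and a line at the group mean (circles het, squares WT). Pkd2, Trpc1 and Trpm7 have every het library above both WT libraries; the other genes overlap.

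Trpm7 and Pkd2, like Trpc1, were called under some settings. DESeq2 called 3 of the 8 tested channel genes, all higher in het, where it called 5.28% of genes as higher. Trpm7 then had a log2 fold change of 0.48 (DESeq2 adjusted p = 0.0432) and Pkd2 of 0.39 (adjusted p = 0.0324). With every gene that had a count in the edgeR fit, the same 3 were called, where 4.13% of genes were called as higher. With library size alone, Trpc1 and Trpm7 were called, where 4.84% of genes were higher. None was called under the other 13 alternatives.

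The authors' deposited table, whose libraries are not stated in the sources used here and may include these 5, lists log2 fold changes (het over WT) of 0.22 for Trpc1 (95% interval -0.32 to 0.75), 0.15 for Trpm7 (-0.34 to 0.64) and -0.025 for Pkd2 (-0.39 to 0.34). For Piezo1 the authors' deposited table has -0.26 (-1.42 to 0.89) and for Piezo2 0.15 (-0.69 to 0.99). For Trpm4, Trpv2 and Trpv4 the authors' deposited table has -0.095, -0.16 and -0.35. The adjusted p of all 8 was 1.0 in the authors' deposited table, which does not list Trpc6. Their 8 values in the authors' deposited table had a median of -0.06.

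**Figure D4:**
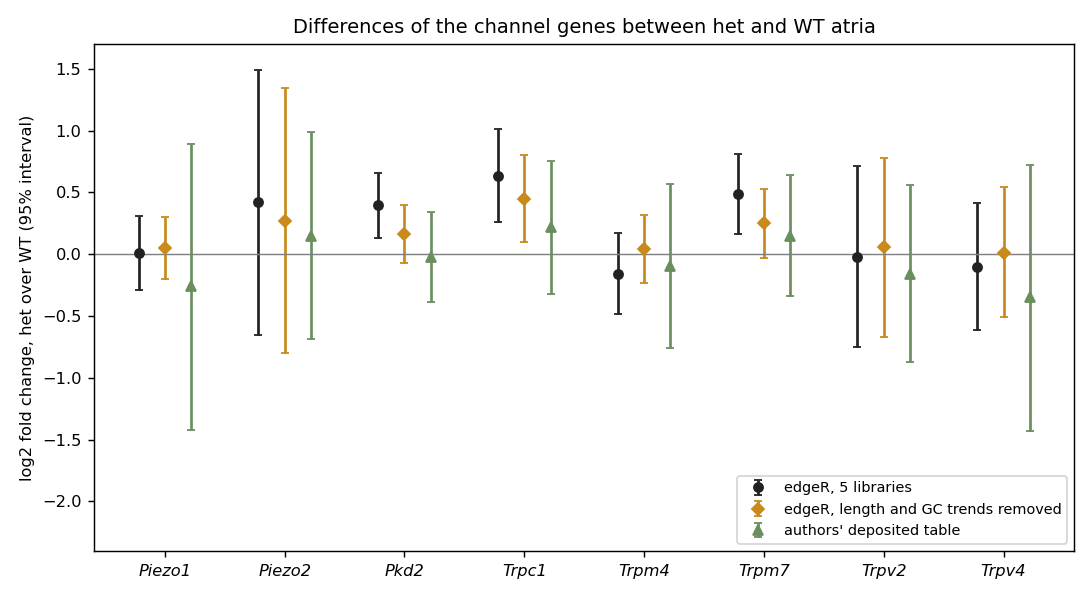
Log2 fold change of each tested channel gene, het over WT, with 95% intervals, from edgeR on the 5 libraries, from edgeR with length and GC trends removed, and from the authors' deposited table. In edgeR the intervals of Pkd2, Trpc1 and Trpm7 lie above 0, with trends removed only that of Trpc1 does, and in the authors' deposited table all include 0. An edgeR interval off 0 corresponds to an unadjusted p under 0.05. Of 16412 genes tested, 4061 had such a p in the main fit and 2219 with trends removed.

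Summed marker levels of several cell types did not overlap between het and WT. How often sums of other gene sets do so was not computed. Counts of single markers called stand beside 5.64% of all genes tested, called by edgeR in either direction. At an unadjusted p under 0.05 edgeR had 5 of 7 cardiomyocyte, 4 of 7 macrophage and 3 of 7 fibroblast markers. Of all genes tested, 24.7% had such a p. The 6 endothelial markers summed to 289.6, 296.9 and 301.0 TPM in het, against 242.5 and 236.1 TPM in WT, with 0 of 6 called in edgeR (1 at an unadjusted p under 0.05) and 0 in DESeq2. The 7 macrophage markers summed to 171.5, 226.2 and 175.7 TPM in het and 144.0 and 141.3 TPM in WT, with 2 of 7 called higher (Adgre1 and Cd163). The 7 fibroblast markers summed to 2297, 2338 and 2358 TPM in het and 2245 and 1284 TPM in WT, with 1 of 7 called higher (Lum). Among fibroblast markers Col1a1, Col1a2 and Tcf21 had log2 fold changes of -0.24, -0.22 and -0.055. These 3 sums were higher in all het libraries, as Trpc1, Trpm7 and Pkd2 were. The cardiomyocyte sum was lower in all het libraries, with Tnni3 and Myl4 called lower and Ryr2 called higher among 7. None of these called markers was called with length and GC trends removed (edgeR adjusted p 0.0578 to 0.583). Their log2 fold changes were then 1.07 (Adgre1), 0.87 (Cd163), 0.39 (Lum), -0.19 (Tnni3), -0.35 (Myl4) and 0.51 (Ryr2). In the authors' deposited table they were -0.056, -0.017, -0.062, 0.21, 0.16 and 0.73, in the same order. The 5 erythroid markers also summed higher, 11770 to 20000 TPM in het against 2048 and 8750 TPM in WT, with 0 of 5 called by edgeR or DESeq2 and 0 at an unadjusted p under 0.05. No marker of these lists was at 0 in all libraries, and their part in the channel values was not tested.

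The smooth muscle and pericyte, Schwann and neuronal, epicardial and adipocyte sums overlapped between the groups. Smooth muscle and pericyte markers summed to 134.4 to 166.4 TPM in het and 155.5 to 158.7 TPM in WT, with Tagln called lower among 7. Within this list the genes went both ways. Myh11, Acta2, Tagln and Cnn1 had log2 fold changes of -0.58, -0.84, -0.93 and -1.02, and Rgs5, Pdgfrb and Notch3 of 0.37, 0.24 and 0.17. DESeq2 called 3 of the 7, where over all genes it called 867 higher and 780 lower. By edgeR 4 of the 7 had an unadjusted p under 0.05, where 24.7% of all genes tested had such a p. With length and GC trends removed Tagln was still called (-0.78, edgeR adjusted p = 0.0428), where 20 of all genes were called higher and 9 lower. The authors' deposited table has Tagln at 0.36 and Myh11 at 0.65, in the other direction, and Acta2 at -0.11 and Cnn1 at -0.71. Schwann and neuronal markers summed to 16.48 to 20.26 TPM in het and 13.22 to 17.1 TPM in WT. Epicardial markers summed to 107.2 to 132.7 TPM in het and 129.1 to 135.9 TPM in WT, and adipocyte markers to 4.04 to 67.47 TPM in het and 14.49 to 37.03 TPM in WT. None of the last 3 lists had a gene called by edgeR or DESeq2; at an unadjusted p under 0.05, which 24.7% of all genes reached, they had 1 of 6 Schwann or neuronal, 3 of 5 epicardial and 0 of 4 adipocyte genes.

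Other TRP channel genes did not pass the test. Of 21, 9 were tested, 0 were called by edgeR, DESeq2 or limma-voom, 0 had an unadjusted edgeR p under 0.05 and 6 had a log2 fold change above 0, with a median of 0.12 (0.056 with length and GC trends removed). The most abundant were Mcoln1, the lysosomal mucolipin channel, at 28.86, 37.95 and 43.84 TPM in het and 32.25 and 25.54 TPM in WT, and Pkd2l2, a relative of Pkd2, at 9.00, 7.48 and 9.12 TPM in het and 8.11 and 5.95 TPM in WT. Mcoln1 had a log2 fold change of -0.10 (edgeR adjusted p = 0.718) and Pkd2l2 of 0.12 (adjusted p = 0.692).

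Among 20 other mechanosensitive channel genes, 17 were tested, 0 were called higher and 1 lower, with a median of -0.076. EdgeR called 5.64% of all genes tested in either direction. At an unadjusted p under 0.05 it had 2 of the 17, where 24.7% of all genes tested had such a p. DESeq2 called 1. The lower gene was Asic2, a proton-gated sodium channel of sensory neurons. It had 3, 3 and 6 expected counts in het, against 32 and 19 in WT, or 0.141, 0.134 and 0.207 CPM against 1.31 and 1.11 CPM. Its log2 fold change was -2.85 (SE 0.64, edgeR adjusted p = 0.0321) at these low counts. It was not called when any one library was left out (edgeR adjusted p 0.0625 to 0.141) or after trend removal (-2.77, adjusted p = 0.0764).

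Of 25 channel partner genes, which bind, traffic or couple to the channels, 23 were tested, and 17 had a log2 fold change above 0 (median 0.11). EdgeR called 1 higher and 1 lower, beside 5.64% of all genes tested in either direction. At an unadjusted p under 0.05 it had 8 of the 23, where 24.7% of all genes tested had such a p. DESeq2 called 4, where over all genes it called 867 higher and 780 lower. Abcc9, the sulphonylurea receptor subunit of KATP channels, had 63.7, 69.5 and 59.9 CPM in het and 44.4 and 34.7 CPM in WT, and rose by 0.70 on the log2 scale (SE 0.14, edgeR adjusted p = 0.027). Cav3, the muscle caveolin, had 34.1, 28.6 and 34.6 CPM in het and 45.5 and 57.9 CPM in WT, and fell by 0.67 (SE 0.15, adjusted p = 0.031). Neither was called after trend removal, at 0.44 for Abcc9 (adjusted p = 0.147) and -0.34 for Cav3 (adjusted p = 0.334). Both were called without WT 7 and not when any other single library was left out.

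Of 25 stretch and calcium response genes, 24 were tested, and 10 had a log2 fold change above 0 (median -0.047). EdgeR called 1 higher and 2 lower, beside 5.64% of all genes tested in either direction. At an unadjusted p under 0.05 it had 6 of the 24, where 24.7% of all genes tested had such a p. DESeq2 called 4, where over all genes it called 867 higher and 780 lower, and limma-voom called 0. Tead1, a transcription factor of the Hippo pathway, rose by 0.53 (SE 0.14, edgeR adjusted p = 0.0444). Ccn1, a matricellular protein gene, fell by 0.49 (SE 0.13, adjusted p = 0.0444), and Nppa, the atrial natriuretic peptide gene, fell by 0.64 (SE 0.16, adjusted p = 0.041). None of the 3 was called with length and GC trends removed (0.33, -0.38 and -0.27). Ccn1 and Nppa were not called when any single library was left out, and of those 5 fits Tead1 was called in that without WT 8.

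**Figure D5:**
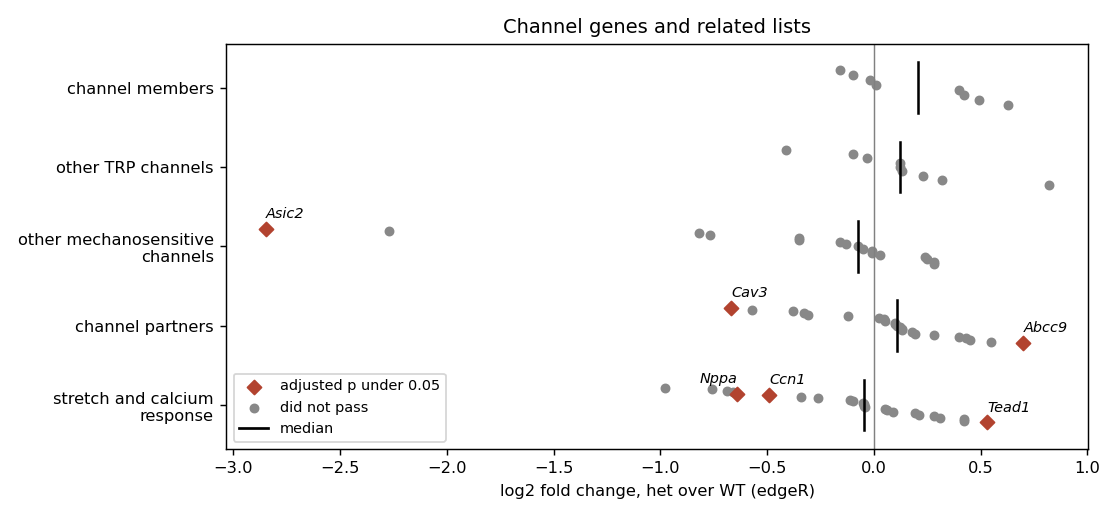
Log2 fold changes, het over WT (edgeR), of the tested channel genes and of genes in 4 related lists, with 1 point per gene, diamonds for genes with an adjusted p under 0.05 and a line at each list's median. The channel genes lie between -0.16 and 0.63 with no diamond; Asic2 lies at -2.85.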

How the data were processed

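Libraries were grouped by title (3 het, 2 WT). Per the submitters' processing notes the tools were STAR and RSEM on GRCm39, with Trim Galore, SAMtools, FastQC, MultiQC, edgeR and limma, without versions or order; the annotation release is not given in the sources used here. Expected counts and TPM per gene and transcript, and the isoform percent, were estimated by the authors, per the file headers. The authors' deposited table holds their own log2 fold changes, moderated t scores and p-values. Expected counts were rounded. Of 57186 genes, 16412 passed edgeR's filterByExpr and were tested by TMM scaling and the robust quasi-likelihood test, with Benjamini-Hochberg adjustment over all genes and a threshold of 0.05. Confidence intervals are 95%. P-values measure the spread between these libraries (biological coefficient of variation 0.18). Transcript shares are of expected counts, with exact permutation tests over libraries. Length and GC trends per library were fitted with mgcv and entered as offsets, with GC content known for 97.9% of genes. Transcript types and sequences came from GENCODE release M21 (GRCm38).

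The members and lists were chosen with earlier results of these data known. Named were the 9 channel genes, Mrc2, and of each list up to 4 called genes or, with none called, the 2 of highest mean TPM. Transcripts described were the 2 with the highest share of each channel gene, but only Trpc1-204 for Trpc1 and none for the low Trpc6. Piezo1-201, at rank 4 in Piezo1, was described outside this rule. Trpm7-204, protein-coding shares and CPM per kilobase of the longest transcript were added after values were seen. Depth, and with it precision, was lowest in WT 8 (17784601 expected counts) and highest in het 7 (28353091). No likeness of expression patterns across 5 libraries was computed. Alternatives were other scalings, filters, DESeq2, limma-voom, limma on log2(TPM + 1) and log2(TPM + 0.1), trend removal and each library left out. The code was tested on simulated data. Fits ran in R 4.3.3 with DESeq2 1.42.0, edgeR 4.0.16, mgcv 1.9.3 and limma 3.58.1.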

Additional observations from a re-analysis of the deposited data

How the results depend on the processing

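Trpc1, Trpm7 and Pkd2 kept a log2 fold change above 0 in all 16 alternatives, from 0.45 to 0.78, 0.25 to 0.60 and 0.16 to 0.54, with adjusted p (edgeR, limma or DESeq2) of 0.0164 to 0.233, 0.00927 to 0.423 and 0.0324 to 0.555. Channel genes called numbered 0 in the reported edgeR fit, 2 with library size alone, 3 when all genes with a count entered and 3 with DESeq2, and 0 in the other 13 alternatives. Over all genes 490 were higher and 436 lower; the counts were 795 and 391 with library size alone, 327 and 568 with upper-quartile scaling, so that the balance turned with scaling, and 1304 and 907 when all genes with a count entered, 867 and 780 with DESeq2, 237 and 222 with limma-voom, 0 and 1 with limma on log2(TPM + 1), 2 and 3 on log2(TPM + 0.1), 11 and 9 with the length trend removed and 20 and 9 after removal of both length and GC trends. With one library left out they ran from 0 to 588 higher and from 0 to 290 lower. At an unadjusted p under 0.05 there were 4061 genes by edgeR, 3549 without het 7 and 3174 by limma on log2(TPM + 1). The median of all genes shifted to -0.14 with every gene with a count and to 0.13 on log2(TPM + 0.1), so folds of single genes there are relative to that. Fits without WT 7 or WT 8 leave 1 WT library, assumed to vary like the others.

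Signs turned for Piezo1, Trpm4, Trpv2 and Trpv4, whose log2 fold changes were near 0, and for Piezo2 (0.42) without WT 8. Piezo1 was -0.038 with upper-quartile scaling, -0.012 with a mean of at least 1 CPM and -0.14 with the length trend removed. Trpm4 was 0.044 with length and GC trends removed. Trpv2 was 0.022 with library size alone, 0.027 with every gene with a count and 0.058 with length and GC trends removed. Trpv4 was 0.036 on log2(TPM + 1), 0.049 on log2(TPM + 0.1) and 0.012 with length and GC trends removed. With one library left out, Piezo1 ran from -0.13 to 0.19, Piezo2 from -0.10 to 1.35, Trpm4 from -0.34 to 0.074, Trpv2 from -0.21 to 0.22 and Trpv4 from -0.29 to 0.13. Differences in the share of the leading transcript then ran from -15.3 to -7.54 points for Piezo1, -33.2 to -2.41 for Piezo2, -0.336 to 4.50 for Trpc1, -0.357 to 4.06 for Trpv2, -19.8 to 70.9 for Trpv4 and -0.786 to 2.99 for Pkd2. The cause was not tested. Trpc6 was too low for a test at this depth except with every gene with a count (log2 fold change 0.16, edgeR adjusted p = 0.948).

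No paired analysis was possible because het and WT libraries share only the number 7.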
